A study of Mus musculus with 22 samples.

Results

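Endothelial cells of the mouse brain were profiled 3 hours after glutamatergic neurons had been silenced, in 4 libraries labelled silencing and 4 labelled silencing control, which are 8 of the 22 libraries of the series. The genes described are the 13017 of 37991 listed genes that reached at least 1 CPM (read counts scaled to the same total in every library) in at least 4 of these 8 libraries. Silencing mice were C57BL/6 animals carrying CamKIIa-tTA and TRE-hM4Di, in which the CamKIIa promoter drives the transactivator tTA in forebrain excitatory neurons and tTA switches on hM4Di there. The receptor hM4Di is a DREADD, a designer receptor that lowers the firing of the neurons that carry it once the drug CNO is given. Silencing controls were littermates that received CNO too. The series text says that the control mice expressed no DREADD, whereas the genotype label of the controls also names both CamKIIa-tTA and TRE-hM4Di. Cortex and hippocampus were pooled, the tissue was dissociated, and cells carrying CD31, an endothelial surface protein, were enriched by sorting while non-endothelial cells were stained for exclusion. No source used here states ages, sexes or the number of mice behind a library, so p-values measure the spread between these libraries. A further 8 libraries, from mice with the activating receptor hM3Dq (activation, 4) and their controls (activation control, 4), serve below only as a second contrast.

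Endothelial cells line blood vessels, and in the brain they form the blood-brain barrier through tight junctions, low transcytosis and a dense set of carriers for glucose, amino acids, lactate and hormones. They also read circulating signals: glucocorticoids enter from the blood and act through a nuclear receptor on genes such as Fkbp5, insulin and growth factors restrain the FoxO transcription factors, and VEGF acts through the receptor encoded by Kdr. None of these cells carries the DREADD by design, so the comparison asks which endothelial transcripts differ when neuronal firing is lowered.

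The 4 silencing libraries held 25897142 to 32957916 reads and the 4 controls 30023977 to 31788585 (exact two-sided permutation test, p = 0.943), and 12804 to 13022 genes in silencing libraries, against 12763 to 13146 in controls, reached 1 CPM (p = 0.83). The smallest p that this test allows is 0.0286. The library labelled silencing control 2 stood apart from the other controls. On the first principal component, with 42.8% of the variance, it scored 19.69, while the silencing libraries scored 6.88 to 16.92 and the other controls -6.53, -29.59 and -31.14. Its mean Spearman correlation was 0.9868 with the silencing libraries and 0.9758 with the controls. Control 1, at 0.9864 and 0.9825, was also closer to the silencing libraries, while controls 3 and 4 were closer to their own group. Nothing in the labels sets control 2 apart, and why it differs was not tested. Results are therefore given for all 8 libraries and, where the call rests on it, without control 2. Same-numbered libraries also deviated together from their group means, with correlations of 0.60, 0.16, 0.44 and 0.14 for numbers 1 to 4, so a fit that compares libraries within a number (the replicate block) stands beside the unblocked one. Below, 4 values in a row are the CPM of libraries 1 to 4 of a group in that order. Log2 fold changes are silencing over silencing control on the log2(CPM + 1) scale, with the standard error of the limma fit (n = 4 and 4, or 4 and 3 without control 2), and a gene is called at an adjusted p under 0.05 over all 13017 genes, in limma unless another tool is named. Among the genes named below, 134 were called without control 2 but not in the unblocked fit of all 8 libraries. In that unblocked fit their limma adjusted p ran from 0.0515 to 0.672. Some of the 134 were called with all 8 libraries and the block. Their values are given from the fit that called them, and where the value without control 2 exceeds the one with it by over 1.5 times both are given.

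With all 8 libraries and no block, 23 genes were called, 0.177% of those tested. Of these, 16 rose (0.123%) and 7 fell (0.0538%). With TMM scaling 29 rose and 6 fell. Of all tested genes 66.3% lay below 0 on the log2 scale (52.3% with TMM), against which the counts of list members below 0 are to be read. The count rested on single libraries: leaving out silencing 1, 2 or 3 or silencing control 1 or 4 called 0 (limma, with 1356 to 2099 genes at an unadjusted p under 0.05), leaving out silencing control 3 or silencing 4 called 7 and 13, and leaving out silencing control 2 called 1503, described below. In every one of the 23 all silencing libraries lay beyond all controls, but such separation was common: 1243 genes (9.55%) had groups that did not overlap. The 23 span vascular growth signalling, ribosome assembly, sugar and lipid metabolism, ion transport, cell shape and transcriptional regulation.

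Kdr encodes VEGFR2, the main receptor through which VEGF drives endothelial growth and permeability. It stood at 459.6, 614, 678 and 689 CPM in silencing libraries, against 1146, 1068, 1493 and 1379.9 CPM in controls. The highest silencing library lay well under the lowest control, and the change was -1.06 ± 0.16 on the log2 scale (limma adjusted p = 0.0478). Pik3r3, a regulatory subunit of the PI3-kinase that acts below such receptors, stood at 65.2, 67.8, 78.00 and 65.3 CPM after silencing, against 120.2, 108, 149 and 128 CPM in controls. The 4 silencing values lay within 13 CPM of each other and under every control (-0.85 ± 0.11, limma adjusted p = 0.0234).

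The ribosome assembly factors Urb2 and Bysl fell together. Urb2 stood at 18.6, 18.4, 22.2 and 22.4 CPM after silencing, against 37.3, 38.04, 38.6 and 33.5 CPM in controls, and Bysl at 9.83, 10.6, 10.4 and 11.4 CPM after silencing, against 17.2, 16.9, 22.2 and 19.7 CPM in controls. Control 2 lay within 1 CPM of control 1 in both (-0.83 ± 0.10 and -0.79 ± 0.11). Tpi1, the triosephosphate isomerase of glycolysis, stood at 92.3, 83.5, 88.7 and 86.2 CPM after silencing, against 131, 116, 133 and 127 CPM in controls. Plin2, a coat protein of lipid droplets, stood at 55.95, 58.5, 58.5 and 59.04 CPM after silencing, against 82.1, 87.7, 78.9 and 84.5 CPM in controls. Both had narrow groups: the silencing values of Plin2 lay within 4 CPM of each other, and its fall of -0.52 ± 0.07 had a limma adjusted p of 0.0253. Auts2, a nuclear regulator known from neurodevelopment, stood at 22.5, 20.3, 19.3 and 20.6 CPM after silencing, against 30.8, 28.9, 30.8 and 29.5 CPM in controls (-0.52 ± 0.08). Other scalings and tools ended some of these calls: the adjusted p of Auts2 was 0.062 with TMM scaling, that of Tpi1 0.0532 with RLE scaling, and with edgeR Kdr missed at 0.0504.

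Among the risers, Wnk4 had the largest change. This kinase controls sodium and chloride cotransporters, in the kidney above all. It stood at 16.02, 20.6, 16.6 and 13.8 CPM after silencing, against 5.71, 5.995, 3.84 and 4.82 CPM in controls (1.54 ± 0.15, limma adjusted p = 0.0151); the lowest silencing library lay far above the highest control. Slc25a33, a mitochondrial carrier of pyrimidine nucleotides, stood at 35.7, 40.1, 41.2 and 26.9 CPM after silencing, against 14.03, 19.1, 13.7 and 10.2 CPM in controls (1.29 ± 0.19), with control 2 the highest control. Ddc, the decarboxylase that makes dopamine and serotonin from their precursors, stood at 334, 347, 372 and 339.6 CPM after silencing, against 256, 204, 231 and 237 CPM in controls, and here control 2 was the lowest control (0.59 ± 0.09, limma adjusted p = 0.0478). Acy1, an aminoacylase of amino acid salvage, stood at 24.2, 26.1, 27.98 and 24.02 CPM after silencing, against 13.8, 15.1, 14.5 and 14.8 CPM in controls, with each group held within 4 CPM (0.77 ± 0.08).

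Mxd4, a MAX partner that represses targets of MYC, stood at 613, 700.4, 695 and 634 CPM after silencing, against 352, 465, 346 and 331 CPM in controls. Zbtb8a, a zinc finger protein, stood at 28.7, 31.1, 24.2 and 19.04 CPM after silencing, against 8.23, 11.9, 9.31 and 8.302 CPM in controls. Both had control 2 as the highest control and no overlap (0.83 ± 0.12 and 1.35 ± 0.17). Samhd1, which breaks down deoxynucleotides, stood at 272, 315, 265 and 278 CPM after silencing, against 167, 184, 170.4 and 175 CPM in controls, and the ubiquitin ligase gene Mkrn1 at 154, 166, 162 and 169.6 CPM after silencing, against 105, 109.7, 104 and 106 CPM in controls. The 4 controls of Mkrn1 lay within 6 CPM of each other (0.61 ± 0.07, limma adjusted p = 0.0151). Cell shape and membrane traffic were represented by Rasal2 (a Ras GTPase activator, 0.90 ± 0.13), the endocytic adaptor Ston1 (0.88 ± 0.14), the actin regulator Eps8 (0.77 ± 0.09) and Tprn (0.79 ± 0.12). Arhgap27, a GTPase activator outside the naming rule and given here to complete the 23, stood at 305, 323, 319 and 306 CPM after silencing, against 213, 215, 232 and 240 CPM in controls (0.48 ± 0.07, limma adjusted p = 0.0486). The rest were Ankrd29 (0.61 ± 0.09) and the uncharacterised 2900041M22Rik (0.96 ± 0.14) and 2810025M15Rik (0.63 ± 0.10). 2900041M22Rik was scarce, at 1.82, 1.88, 1.61 and 1.47 CPM after silencing, against 0.298, 0.766, 0.315 and 0.228 CPM in controls.

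**Figure D1:**
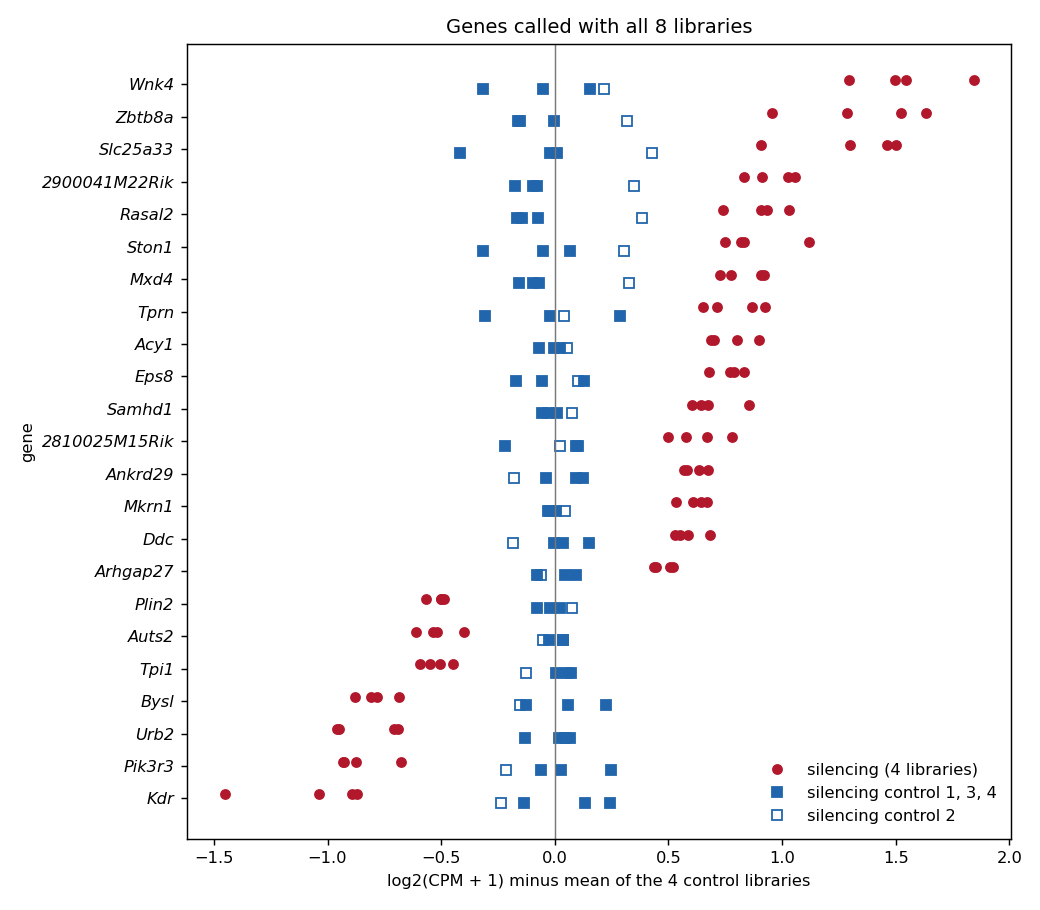
Each of the 23 called genes in each of the 8 libraries, as log2(CPM + 1) minus the mean of the 4 controls (x axis); red circles are silencing libraries, blue squares silencing controls 1, 3 and 4, open squares silencing control 2. All silencing libraries lie beyond all controls, from Wnk4 (1.54) at the top to Kdr (-1.06) at the bottom, and control 2 lies above the other controls for the 7 genes with the largest rise.

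Comparing libraries within their number called 136 genes (1.04%), the 23 among them, of which 79 rose (0.607%) and 57 fell (0.438%); with TMM scaling 96 rose and 38 fell. Of the 136, 112 had groups that did not overlap. The added genes that the naming rule picked were regulators of cell survival, lipid enzymes, an exchange factor and vascular surface proteins. Trp53inp1, a gene of the stress and autophagy response, stood at 678, 655, 559 and 473 CPM after silencing, against 118, 454, 73.96 and 50.9 CPM in controls. Control 2 held about 4 times the next control yet stayed under every silencing library (2.28 ± 0.39 with the block, limma adjusted p = 0.0471, against 0.118 without). Pmaip1, which encodes the pro-death protein NOXA, stood at 290.2, 257, 214 and 208 CPM after silencing, against 94.5, 163, 59.8 and 61.7 CPM in controls (1.46 ± 0.18). Lpin2, a phosphatidate phosphatase of lipid synthesis, stood at 179, 182, 148 and 134 CPM after silencing, against 55.8, 102, 38.4 and 27.4 CPM in controls (1.67 ± 0.20). In both genes number 4 was the lowest silencing library, and in Lpin2 it was the lowest control as well. Both genes had no overlap.

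Net1, a guanine nucleotide exchange factor, was the most abundant of these risers. It stood at 1117, 1284, 1239 and 1005 CPM after silencing, against 408, 641, 379 and 238 CPM in controls. Number 2 was the highest and number 4 the lowest library of both groups, and its limma adjusted p was 0.0209 with the block and 0.0515 without it (1.56 ± 0.17). The amino acid oxidase gene Lao1 stood at 36.5, 43.1, 36.3 and 40.1 CPM after silencing, against 7.496, 24.4, 4.78 and 8.63 CPM in controls. 2810029C07Rik, uncharacterised, stood at 48.9, 75.9, 63.6 and 50.2 CPM after silencing, against 9.15, 32.7, 7.05 and 4.92 CPM in controls. Both had the highest control in number 2 and no overlap (1.93 ± 0.27 and 2.40 ± 0.29). Spsb1, a substrate adaptor of a ubiquitin ligase, and Rnf103, a ubiquitin ligase of the endoplasmic reticulum, rose by 1.56 ± 0.26 and 1.46 ± 0.22.

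Of the genes that fell with the block, the naming rule picked 10, among them the lactate carrier gene Slc16a1, described with glycolysis. Pcdh12, a cadherin of endothelial junctions, stood at 3.19, 9.16, 5.41 and 3.82 CPM after silencing, against 10.5, 22.3, 20.9 and 15.3 CPM in controls. The groups only just missed each other, but within every number the silencing library lay well under its control (-1.55 ± 0.13, limma adjusted p = 0.0144, against 0.0771 without the block). Cxcl12, a chemokine that endothelium presents to leukocytes, stood at 1434, 1583, 2014 and 1600.2 CPM after silencing, against 2774, 2436, 4092 and 3452 CPM in controls (-0.93 ± 0.13). Tnfsf10, the death ligand TRAIL, stood at 44.1, 77.7, 69.8 and 89.2 CPM after silencing, against 109.5, 121, 155 and 159.5 CPM in controls (-0.97 ± 0.12). Mmp15, a membrane-bound matrix protease, stood at 42.9, 51.6, 47.1 and 55.6 CPM after silencing, against 87.9, 77.1, 149 and 145 CPM in controls (-1.15 ± 0.16). In these 3 genes controls 3 and 4 were the highest libraries. The rest of the rule's falling genes were Hic1, a transcriptional repressor (-0.89 ± 0.12), Klhl6 (-1.003 ± 0.11), Glipr2 (-1.02 ± 0.11), the actin-binding villin gene Vil1 (-0.88 ± 0.12) and Fam102a (-0.87 ± 0.13).

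Leaving out silencing control 2, with 4 libraries against 3 and no block, called 1503 genes (11.5%; 3878 at an unadjusted p under 0.05), of which 539 rose (4.14%) and 964 fell (7.41%). Counts of list members called in this fit are to be read against these shares. The balance of directions rested on the scaling, since 720 rose and 462 fell with TMM. All 23 were among the 1503, as were 129 of the 136 called with the block, and the block without pair 2 called 2399 (18.4%), whereas the block without pair 1, 3 or 4 called 0 (limma, 1363 to 1490 at an unadjusted p under 0.05). In the authors' deposited table of silencing changes 1323 genes are marked, and 22 of the 23 and 788 of the 1503 are among them. Only 369 of the 1323 have an FDR under 0.05 there, so the marks and the calls here rest on unlike thresholds. Control 2 took no part in the test that called the 1503, though the 1 CPM filter counted it. It had been set apart because it lay near the silencing libraries. Its place among the 1503 describes that likeness again and is no separate evidence of it. The distance of control 2 from the mean of controls 1, 3 and 4, divided by the distance of the silencing mean, had a median of 0.97 over the 1503 genes, with quartiles of 0.62 and 1.35. Control 2 lay past the midway point in 1231 and beyond the silencing mean in 725. Rising and falling genes had the same median of 0.97. For the 23, whose choice did use control 2, the median was 0.17.

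**Figure D2:**
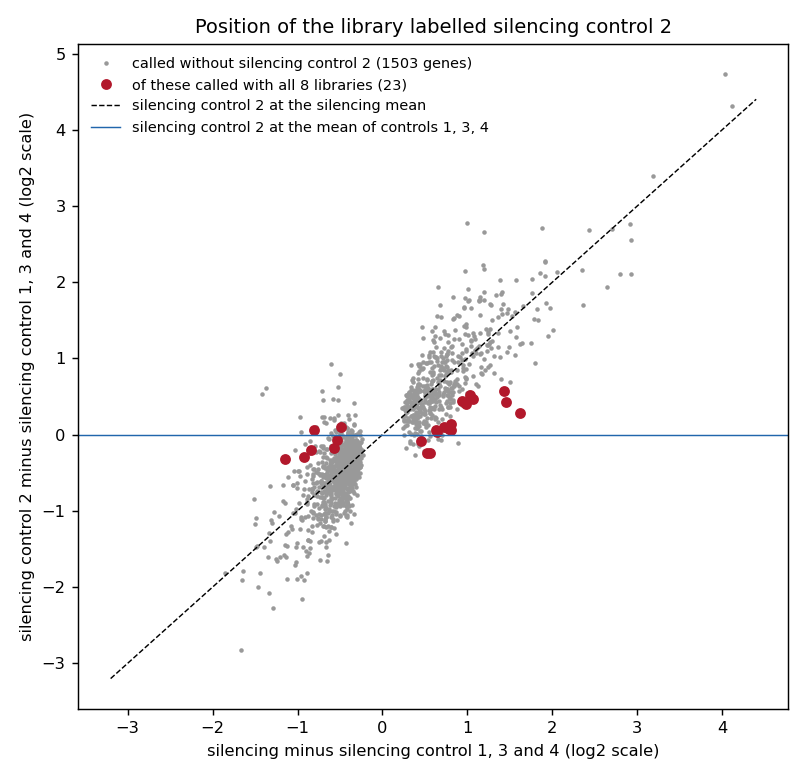
Silencing mean (x axis) and silencing control 2 (y axis), each minus the mean of silencing controls 1, 3 and 4 on the log2 scale, for the 1503 genes called without control 2 (grey) and the 23 called with all 8 libraries (red). Most grey points follow the dashed line, where control 2 equals the silencing mean, with a median position of 0.97, while the red points lie near the horizontal line of the other controls.

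Examples follow from the genes called only without control 2. Control 2 took part in choosing these, so its place in them is partly set by the choice. Doc2b, a calcium sensor of vesicle fusion, stood at 222, 283, 256 and 328 CPM after silencing, against 24.6, 308, 9.44 and 13.1 CPM in controls. Kcna5, a voltage-gated potassium channel, stood at 81.6, 128, 121 and 145 CPM after silencing, against 17.6, 134, 13.1 and 7.23 CPM in controls. In both, controls 1, 3 and 4 lay far under every silencing library and control 2 lay among them. The changes without control 2 were 4.12 ± 0.26 and 3.19 ± 0.27 (limma adjusted p = 0.000121 and 0.000331), and with it 3.04 ± 0.88 and 2.34 ± 0.71 (0.162 and 0.169). Kbtbd11 and the unannotated Gm11827 rose the same way (1.93 ± 0.14 and 2.35 ± 0.26). Falling genes mirrored them. Prr5l, a partner of the mTORC2 kinase complex, stood at 22.1, 22.1, 33.7 and 29.3 CPM after silencing, against 77.2, 26.9, 109 and 110.4 CPM in controls. Myct1, enriched in endothelium, stood at 12.7, 19.3, 18.1 and 20.97 CPM after silencing, against 47.2, 22.2, 53.2 and 53.9 CPM in controls. Control 2 came closest to the silencing libraries in both (-1.85 ± 0.17 and -1.50 ± 0.15 without it). Kank4 (-1.66 ± 0.19), Synpo2 (-1.48 ± 0.23), the lipoxygenase gene Alox12 (-1.44 ± 0.20) and A930038C07Rik (-1.66 ± 0.27, and -0.96 ± 0.60 with control 2) also fell, as did Vegfc and Tgfb2, described with their pathways.

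The 38 pathway lists were chosen with earlier results of these data known, so a rank among them may partly follow from that choice. Among them, glucocorticoid response genes had the highest median. Of 24 tested, 21 lay above 0 (23 with TMM), the median was 0.50 against -0.07 for all tested genes, 0 were called without the block (limma; 12 at an unadjusted p under 0.05, 0 with edgeR and 6 with DESeq2), 4 rose with it and 11 rose without control 2 (median 0.71 against -0.09 for all). Fkbp5, a chaperone that dampens the glucocorticoid receptor and is itself induced by it, stood at 255, 342, 248 and 327 CPM after silencing, against 20.9, 469, 10.3 and 21.6 CPM in controls. Control 2 was the highest of all 8 libraries, while the other 3 controls lay more than 10-fold under every silencing library (4.04 ± 0.23 without control 2, limma adjusted p = 8.9e-05). Zbtb16, a zinc finger regulator induced by steroids, stood at 236, 238, 239.8 and 236 CPM after silencing, against 99.1, 214, 15.1 and 18.6 CPM in controls. Its silencing libraries were almost equal and its controls spread over an order of magnitude, and it was called only without control 2 (2.92 ± 0.52, limma adjusted p = 0.00861).

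Klf15, a metabolic transcription factor under glucocorticoid control, stood at 26.1, 25.9, 23.5 and 16.6 CPM after silencing, against 3.88, 13.7, 2.17 and 1.53 CPM in controls. Hif3a, an inhibitory member of the hypoxia factor family, stood at 16.3, 26.5, 23.3 and 23.7 CPM after silencing, against 3.88, 13.1, 3.11 and 1.498 CPM in controls. Both were called with the block (limma adjusted p = 0.029 and 0.037) and had no overlap. Ddit4, an inhibitor of mTORC1, stood at 303, 277, 231 and 159 CPM after silencing, against 118, 134, 106 and 44.1 CPM in controls and it was lowest in number 4 of both groups (1.33 ± 0.13, limma adjusted p = 0.0209 with the block). Tsc22d3, which encodes the anti-inflammatory GILZ, stood at 887, 945, 931 and 745 CPM after silencing, against 461, 679, 521 and 222 CPM in controls. It had no overlap and was called without control 2 only (1.21 ± 0.25). Also rising without control 2 were Klf9 (0.76 ± 0.13), Map3k6 (1.92 ± 0.24), the sulfotransferase Sult1a1 (1.26 ± 0.13), Arrdc2 (0.59 ± 0.12) and Angptl4, an inhibitor of lipoprotein lipase (2.44 ± 0.26). Classical targets did not all follow. Sgk1, a kinase that glucocorticoids induce quickly, stood at 1317, 954, 1109 and 917 CPM after silencing, against 1381, 1122, 699 and 717 CPM in controls. These groups overlapped widely, and it was not called with all 8 libraries, with the block or without control 2 (0.18 ± 0.23). The receptor gene Nr3c1 was also uncalled, at 245, 241, 238 and 267 CPM after silencing, against 259, 253, 277 and 270.5 CPM in controls (-0.10 ± 0.07).

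**Figure D3:**
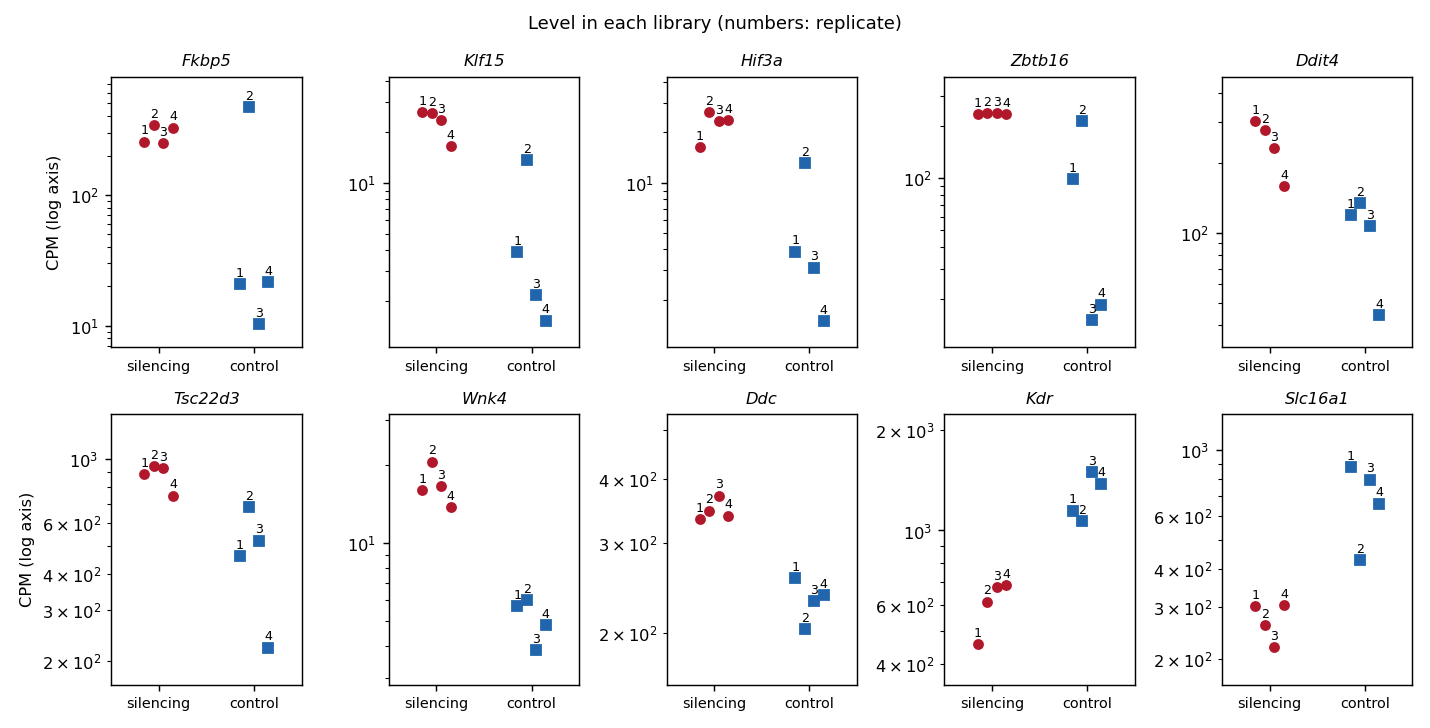
CPM (log axis) of 10 genes in the 4 silencing libraries (red, left) and the 4 silencing controls (blue, right), numbered by replicate. Control 2 sits with the silencing libraries for Fkbp5 (469 CPM) and Zbtb16 (214 CPM), between the groups for Klf15 (13.7 CPM), Hif3a (13.1 CPM) and Slc16a1 (428 CPM), and with the other controls for Wnk4, Ddc and Kdr.

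The stretch before and just after the gene start was read from RefSeq (mouse build GRCm38.p6, 250 bases before to 50 after the start), to show the letters of known kinds of motif in genes described here. Of 12990 tested symbols 8790 matched a window. The 5 windows printed are those of 3 rising genes with an E-box (the regulators Klf15 and Mxd4, and the carrier Slc25a33), of the one tested gene with a full palindromic glucocorticoid response element (Sgk1) and of a falling sterol gene (Cyp51). Capitals mark the E-box CACGTG, bound by factors such as MYC, MAX and CLOCK, in the first 3, AGAACA and TGTTCT with 3 bases between them in Sgk1, and the NF-Y box CCAAT in Cyp51.
Klf15, chr6:90462326-90462625, forward strand: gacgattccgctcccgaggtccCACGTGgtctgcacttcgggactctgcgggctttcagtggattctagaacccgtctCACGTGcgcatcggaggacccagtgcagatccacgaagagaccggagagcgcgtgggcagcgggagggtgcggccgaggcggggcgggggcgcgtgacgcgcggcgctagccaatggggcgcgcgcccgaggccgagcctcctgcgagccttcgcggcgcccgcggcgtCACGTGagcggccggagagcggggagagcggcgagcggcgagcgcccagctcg
Mxd4, chr5:34187661-34187960, reverse strand: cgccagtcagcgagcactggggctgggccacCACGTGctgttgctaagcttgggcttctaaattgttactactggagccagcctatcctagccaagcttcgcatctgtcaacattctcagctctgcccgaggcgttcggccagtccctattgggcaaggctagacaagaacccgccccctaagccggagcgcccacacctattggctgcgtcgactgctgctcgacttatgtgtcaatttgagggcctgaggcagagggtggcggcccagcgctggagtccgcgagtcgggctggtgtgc
Slc25a33, chr4:149774218-149774517, reverse strand: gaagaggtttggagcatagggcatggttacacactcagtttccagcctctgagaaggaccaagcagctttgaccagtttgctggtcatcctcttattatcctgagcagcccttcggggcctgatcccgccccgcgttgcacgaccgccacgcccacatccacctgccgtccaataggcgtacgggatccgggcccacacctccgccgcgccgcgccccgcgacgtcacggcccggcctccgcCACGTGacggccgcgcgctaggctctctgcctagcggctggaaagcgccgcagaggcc
Sgk1, chr10:21993640-21993939, forward strand: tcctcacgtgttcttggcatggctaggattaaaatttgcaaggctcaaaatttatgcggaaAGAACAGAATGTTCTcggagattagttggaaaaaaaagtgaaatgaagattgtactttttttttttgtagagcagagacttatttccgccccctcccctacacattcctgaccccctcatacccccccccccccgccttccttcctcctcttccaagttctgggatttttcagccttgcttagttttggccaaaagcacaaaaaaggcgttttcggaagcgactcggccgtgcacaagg
Cyp51, chr5:4104648-4104947, reverse strand: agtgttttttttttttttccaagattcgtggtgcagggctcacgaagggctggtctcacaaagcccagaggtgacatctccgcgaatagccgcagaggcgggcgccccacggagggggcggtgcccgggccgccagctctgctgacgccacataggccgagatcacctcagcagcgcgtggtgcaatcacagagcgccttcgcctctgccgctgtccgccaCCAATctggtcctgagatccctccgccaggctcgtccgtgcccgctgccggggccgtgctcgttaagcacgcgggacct
The E-box, read on both strands, stood in 11.8% of tested genes' windows. It stood in 4 of the 13 windows of genes that rose in the fit of all 8 libraries (30.8%), in 14 of 62 of those that rose with the block (22.6%) and in 39 of 389 of those that rose without control 2 (10%). Among the genes that fell it stood in 1 of 6 windows with all 8 libraries (16.7%), in 6 of 41 with the block (14.6%) and in 15.5% without control 2. Klf15 held 3 of them, Mxd4 one that starts 219 bases before the gene start, and Slc25a33 one that starts 8 bases before it. Genes named above that held one too include Acy1, Net1, Fkbp5 and Lpin2, and the falling Plin2, Slc16a1 and Tgfb2. The uncalled Sgk1 held one as well, left in lower case in its window. The full glucocorticoid element stood in 3 of 27025 windows. The one in Sgk1 starts 189 bases before its start, and Sgk1 itself was not called. The NF-Y box stood in 42.8% of tested genes' windows. Of windows of rising genes it stood in 10 of 13 with all 8 libraries (76.9%), in 53.2% with the block and in 42.4% without control 2.

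Clock genes of both limbs were called by limma with the block or without control 2 and in none of 24 with all 8 libraries (7 at an unadjusted p under 0.05, 0 with edgeR), where DESeq2 called 3 of the output limb and 1 of the core loop. In the output limb, whose PAR bZIP factors follow the clock, 2 of 10 genes rose with the block, and 4 rose and 1 fell without control 2 (median 0.38). Hlf stood at 52.8, 56.4, 49.5 and 43.1 CPM after silencing, against 27.2, 31.5, 18.6 and 12.5 CPM in controls, with no overlap (1.21 ± 0.15 with the block, limma adjusted p = 0.0226). Tef, of the same family, stood at 139.6, 157, 149.6 and 84.3 CPM after silencing, against 86.1, 103, 69.4 and 54.4 CPM in controls. Its number 4 libraries were the lowest of each group, which made the groups overlap (0.75 ± 0.10, limma adjusted p = 0.0268 with the block). Wee1, a cell cycle kinase under clock control, rose without control 2 (1.26 ± 0.22), as did the P450 reductase gene Por (0.63 ± 0.10, and 0.37 ± 0.22 with control 2), and Nampt, the enzyme of NAD salvage, fell (-0.57 ± 0.07, and -0.34 ± 0.20 with control 2). In the core loop 1 of 14 rose and 1 fell with the block, Per2 and Arntl. Per2, a repressor of the loop, stood at 23.4, 19.9, 18.9 and 10.5 CPM after silencing, against 11.5, 14.3, 6.13 and 3.68 CPM in controls. Its activator Arntl stood at 72.9, 63.2, 70.1 and 85.5 CPM after silencing, against 98.6, 95.02, 100.1 and 111 CPM in controls. Arntl had no overlap and Per2 did (-0.47 ± 0.07 and 1.05 ± 0.17). Without control 2 Cry1 fell too (-0.41 ± 0.11).

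Genes of sterol and fatty acid synthesis lay lower after silencing, and those of fatty acid uptake and lipid droplets split. Of 24 tested genes of sterol synthesis and uptake all lay below 0 (23 with TMM or RLE scaling), with a median of -0.31; 2 fell with the block and 7 without control 2. Sqle, the squalene epoxidase, stood at 9.47, 9.26, 10.7 and 7.96 CPM after silencing, against 13.8, 13.7, 18.8 and 16.3 CPM in controls. Cyp51, the lanosterol demethylase, stood at 15.02, 13.6, 18.8 and 14.6 CPM after silencing, against 23.02, 23.1, 27.6 and 26.5 CPM in controls. In neither did the groups overlap, and control 2 lay beside control 1 (-0.68 ± 0.11 and -0.66 ± 0.09 with the block). Mvk (-0.66 ± 0.13, and -0.31 ± 0.30 with control 2), Pmvk (-0.39 ± 0.08) and Dhcr7 (-0.51 ± 0.13, and -0.32 ± 0.19 with control 2), further enzymes of the path, and Insig1, which holds back its regulator SREBP (-0.42 ± 0.09), fell without control 2. The NF-Y box stood in 15 of 16 sterol windows (93.8%), against 42.8% of tested genes' windows, and the sterol element core CACCCCAC in 1 of 16. Other lists had high shares of the NF-Y box too, such as the unfolded protein response (17 of 20 windows, 85%) and the core clock (9 of 11, 81.8%).

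All 12 tested genes of fatty acid synthesis lay below 0 (11 with RLE), with a median of -0.22; Fasn, the fatty acid synthase, fell with the block (-0.50 ± 0.08), and Fasn, Scd2 (-0.89 ± 0.23) and Srebf1 (-0.37 ± 0.09) fell without control 2. The list of fatty acid uptake and lipid droplets split, with 10 of 24 above 0 (12 with TMM) and, without control 2, 7 rising and 3 falling. Among those 7 was Pnpla2, which opens stored triglyceride. It stood at 577, 619.7, 491 and 478 CPM after silencing, against 308, 507, 217 and 208 CPM in controls. The phosphatidate phosphatase gene Lpin1, also among them, stood at 101, 126, 94.4 and 97.2 CPM after silencing, against 29.1, 109, 22.5 and 21.9 CPM in controls. Control 2 stood above silencing libraries 3 and 4 in Pnpla2 and above most silencing libraries in Lpin1 (1.16 ± 0.15 and 2.06 ± 0.13 without it). Lpl, the lipoprotein lipase, rose in that fit as well (1.92 ± 0.27), while the acyl-CoA synthetase Acsl3 fell (-0.48 ± 0.09).

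With all 8 libraries VEGF and angiogenesis genes had the lowest median of the 38 lists, -0.37, with 25 of 28 below 0 (25 with TMM). This rank too may partly follow from how the lists were chosen. Kdr was called with all 8 libraries, Kdr and Pdgfb with the block, and without control 2 the median was -0.28, with 10 falling and 1 rising. In that fit 5 lists had a lower median, the lowest being venous identity at -0.39. General endothelial markers lay lower as well: 12 of 15 were below 0, Kdr alone fell with all 8 libraries and with the block, and 6 fell without control 2, Kdr, Cldn5 and Eng among them (median -0.17, and -0.24 without control 2). The part that this plays in the vascular lists was not tested. The ligand Vegfc, which acts on lymphatic and vascular VEGF receptors, stood at 6.07, 6.45, 7.78 and 6.06 CPM after silencing, against 18.7, 6.59, 23.1 and 18.8 CPM in controls. Control 2 lay within the silencing range while the other 3 controls lay above 18 CPM (-1.48 ± 0.12 without it). Vegfa stood at 5.19, 7.41, 7.27 and 5.33 CPM after silencing, against 9.55, 11.4, 9.81 and 8.76 CPM in controls, with no overlap (-0.52 ± 0.14 without control 2). Nrp1, the co-receptor of Kdr, stood at 187, 249, 220 and 199.9 CPM after silencing, against 312, 275, 366 and 300.5 CPM in controls, with no overlap either (-0.61 ± 0.11 and limma adjusted p = 0.0103 without control 2, against -0.55 ± 0.12 and 0.0907 with all 8 libraries and 0.0744 with the block). Pdgfb, the signal that recruits pericytes, fell by 0.49 ± 0.08 with the block, and Pdgfa (-0.82 ± 0.13), the guidance receptor gene Unc5b (-1.33 ± 0.17) and the endothelial transcription factor gene Ets1 (-0.82 ± 0.11) fell without control 2. Igfbp3, which binds insulin-like growth factors, was the riser (1.41 ± 0.20). The decoy receptor gene Flt1, by far the most abundant member, was not called, at 5655, 6044, 6222 and 6590 CPM after silencing, against 5919, 6985, 7255 and 6018 CPM in controls.

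Signalling by TGF-beta, a regulator of endothelial quiescence and matrix, had 18 of 26 genes below 0 (69.2%, near the 66.3% of all tested genes, and 14 with TMM), 2 falling with the block and 7 falling and 2 rising without control 2. Smad7, the inhibitory Smad, stood at 82.7, 112, 124 and 119 CPM after silencing, against 134, 265, 209.7 and 200.2 CPM in controls. Smad3, the signal transducer, stood at 30.2, 35.6, 40.2 and 43.3 CPM after silencing, against 52.2, 57.4, 88.7 and 67.6 CPM in controls. Both had no overlap and fell with the block (-0.85 ± 0.10 and -0.80 ± 0.10). Eng, the endothelial co-receptor endoglin, stood at 1223, 1171, 1218 and 1073 CPM after silencing, against 1732, 1384, 2006 and 1881 CPM in controls. All silencing values lay under all controls, and it was called without control 2 (-0.68 ± 0.10, limma adjusted p = 0.00421). The ligand gene Tgfb2 (-1.65 ± 0.17), the receptor gene Acvrl1 (-0.37 ± 0.10) and the BMP antagonist gene Nog (-0.89 ± 0.17) fell in that fit, and the co-receptor gene Tgfbr3 rose (0.36 ± 0.09). In the arterial list, 6 of 15 fell without control 2, among them Alpl (-0.73 ± 0.12), Efnb2 (-0.42 ± 0.11) and Gkn3 (-0.80 ± 0.22).

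The glucose transporter gene Slc2a1 and glycolysis genes were called mostly once control 2 was left out. Slc2a1, which encodes GLUT1 and is one of the most abundant transcripts of this endothelium, stood at 11826, 11797, 10712 and 9569.6 CPM after silencing, against 5959, 11784, 5437 and 5995 CPM in controls. Controls 1, 3 and 4 lay far under every silencing library and control 2 lay among them, and it was called only without control 2 (0.92 ± 0.17, limma adjusted p = 0.0107, against 0.288 with it). Of 19 glycolysis genes, 17 lay below 0 (89.5%, and 17 with TMM), with a median of -0.34; 3 fell with the block and, without control 2, 8 fell and 2 rose. Ldha, which makes lactate from pyruvate, stood at 224, 164, 163 and 236 CPM after silencing, against 325, 356, 331 and 344 CPM in controls (-0.80 ± 0.12 with the block). Slc16a1, the MCT1 transporter that moves lactate across the barrier, stood at 301, 260.5, 220.3 and 304 CPM after silencing, against 875, 428, 796 and 662 CPM in controls (-1.30 ± 0.17, limma adjusted p = 0.0268). Neither overlapped between groups; control 2 was the highest control for Ldha and the lowest for Slc16a1. Aldoa (-0.47 ± 0.08), Pfkl (-0.43 ± 0.08), Pkm2 (-0.39 ± 0.07) and Eno1 (-0.81 ± 0.13) fell without control 2, and Pfkfb3, whose product stimulates phosphofructokinase, rose (1.38 ± 0.23). Oxidative phosphorylation genes lay below 0 in 38 of 38 (35 with TMM), against 66.3% of all tested genes (52.3% with TMM), by a small median of -0.18, with 0 called with or without the block (limma; 8 at an unadjusted p under 0.05, 0 with edgeR or DESeq2) and 3 falling without control 2 (7.89%, near the 7.41% of all tested genes).

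Hypoxia genes did not move as one: of 16, 9 lay above 0, and without control 2 5 rose and 2 fell. Ndrg1 (1.15 ± 0.12), Kdm3a (0.78 ± 0.08) and Bnip3 (0.97 ± 0.15, and 0.52 ± 0.38 with control 2) rose. Ankrd37 fell (-1.37 ± 0.28).

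Other carriers and barrier genes were called without control 2 rather than with it. Of 30 nutrient and hormone carriers 10 fell and 5 rose in that fit, and 1 (Slc16a1) fell with the block. Slc6a6, the taurine carrier, stood at 1545, 1212, 1836 and 1418 CPM after silencing, against 2846, 1114, 3724 and 3472 CPM in controls. Tfrc, the transferrin receptor that brings in iron, stood at 564, 713, 1039 and 661 CPM after silencing, against 1460.4, 392, 1286 and 1662 CPM in controls. In both, control 2 was the lowest of the 8 libraries and the other controls the highest (-1.16 ± 0.16 and -1.01 ± 0.19 without it, and -0.77 ± 0.35 and -0.54 ± 0.41 with it, limma adjusted p = 0.315 and 0.549). Slc38a5 (-0.94 ± 0.14, and -0.57 ± 0.32 with control 2), Slc7a1 (-0.67 ± 0.13, and -0.30 ± 0.32 with control 2), Slc5a6 (-0.76 ± 0.11, and -0.48 ± 0.24 with control 2), the iron exporter Slc40a1 (-0.70 ± 0.14), the lysophosphatidylcholine carrier Mfsd2a (-0.48 ± 0.12) and the thyroid hormone carrier Slco1c1 (-0.42 ± 0.11) fell too. Zinc exporter Slc30a1 (0.68 ± 0.13), glutamate carrier Slc1a1 (0.47 ± 0.10, and 0.25 ± 0.20 with control 2) and the insulin receptor gene Insr (0.58 ± 0.14, and 0.36 ± 0.22 with control 2) rose.

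Among 20 junction genes 15 lay below 0 (75%, against 66.3% of all tested genes, and 12 with TMM). Of these 20, 1 (Pcdh12) fell with the block and 3 fell without control 2 (15%, against 7.41% of all tested genes). Cldn5, the main claudin of the barrier, stood at 1909, 2438, 2469.9 and 2613 CPM after silencing, against 3684, 2102, 4922 and 5172 CPM in controls. Controls 1, 3 and 4 were above every silencing library and control 2 was inside their range (-0.96 ± 0.17 without it, limma adjusted p = 0.00866, against 0.273 with it). The Wnt pathway, which maintains the barrier, had 2 receptor genes that rose without control 2, Fzd4 (1.10 ± 0.21) and Lrp5 (0.40 ± 0.07). In that fit 4 of its 21 genes fell (19%, against 7.41% of all tested genes), among them the transcription factor genes Sox18 (-0.61 ± 0.15) and Foxf2 (-0.61 ± 0.12). Cav1 and Cav2, coat proteins of caveolae, fell in that fit (-0.53 ± 0.11 and -0.39 ± 0.08). Of 8 drug efflux pumps only Abcc4 was called, again without control 2 (0.73 ± 0.13). In that fit 4.14% of all tested genes rose and 11.5% were called in either direction.

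FoxO target genes, which rise when insulin and growth factor signalling is low, had 21 of 27 members above 0 (23 with TMM) and a median of 0.18. Mxd4 was called with all 8 libraries, 5 rose with the block and 7 without control 2, and 0 fell in any of these fits. The list shares Mxd4, Trp53inp1 and Tsc22d3 with results above. Sesn1, a stress-induced inhibitor of mTORC1, stood at 564, 488, 395 and 288 CPM after silencing, against 196, 294, 137 and 107 CPM in controls. Foxo3 itself stood at 158, 163, 160.3 and 154 CPM after silencing, against 107, 122, 99.2 and 71.1 CPM in controls. Foxo3 had no overlap, and in Sesn1 silencing 4 lay just under control 2 (1.30 ± 0.14 and 0.69 ± 0.12 with the block, limma adjusted p = 0.0209 and 0.0466). Txnip, a brake on glucose uptake, rose with the block (0.73 ± 0.11).

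Ribosome biogenesis genes lay below 0 in 31 of 33 (29 with TMM), with a median of -0.30. Beyond Urb2 and Bysl, 8 more fell without control 2, among them Nolc1, a nucleolar chaperone, at 39.9, 36.4, 39.1 and 46.5 CPM after silencing, against 51.4, 51.1, 54.9 and 55.7 CPM in controls. Wdr75, of the small-subunit processome, stood at 20.8, 16.96, 20.01 and 17.2 CPM after silencing, against 27.5, 29.1, 24.2 and 26.5 CPM in controls. Both had no overlap, and control 2 sat with its group (-0.41 ± 0.09 and -0.46 ± 0.10 without it). Nop2 (-0.51 ± 0.09), Rrp9 (-0.39 ± 0.09) and Ltv1 (-0.36 ± 0.09) fell too. Of 19 cell cycle genes, Ccnd1 (-0.70 ± 0.16), Mcm2, Mcm3, Mcm6 and Cdk4 fell without control 2, and Mxd4 rose there as it did with all 8 libraries.

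Interferon and antigen presentation genes lay below 0 in 25 of 29 (23 with TMM), with a median of -0.16, 0 called with all 8 libraries (limma; 6 at an unadjusted p under 0.05, 0 with edgeR and 2 with DESeq2) and 8 falling without control 2. The interferon receptor genes Ifnar1 and Ifnar2 were among these. Ifnar1 stood at 207, 246, 263 and 309 CPM after silencing, against 395, 326, 444 and 412 CPM in controls, with no overlap (-0.71 ± 0.12 without control 2, and -0.65 ± 0.09 for Ifnar2). Gbp2 (-0.63 ± 0.11) and Isg15 (-0.70 ± 0.19) followed. Of 29 oxidative stress genes 7 fell and 1 rose in that fit, with the largest fall in Srxn1 (-0.65 ± 0.12). Of 18 heat shock genes 3 fell, among them Hspb1 (-0.68 ± 0.12, and -0.44 ± 0.22 with control 2). Monoamine oxidase genes fell as well: Maoa stood at 244, 235, 286 and 244 CPM after silencing, against 471, 222, 500.4 and 485 CPM in controls, where control 2 was the lowest library and the other controls the highest (-0.95 ± 0.08 without it, and -0.54 ± 0.09 for Maob).

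Of 21 immediate early genes 0 were called with all 8 libraries, with the block or without control 2 (limma; 0 at an unadjusted p under 0.05 in the fit of all 8, and 0 with edgeR or DESeq2). These genes report recent stimulation and are also induced while tissue is dissociated. Fos stood at 8963, 5190.3, 7164 and 7481 CPM after silencing, against 8340, 5070.3, 5889.9 and 5914 CPM in controls, among the highest levels of the table, and its groups overlapped (0.19 ± 0.24). The list median was 0.08 with all 8 libraries and -0.05 without control 2.

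**Figure D4:**
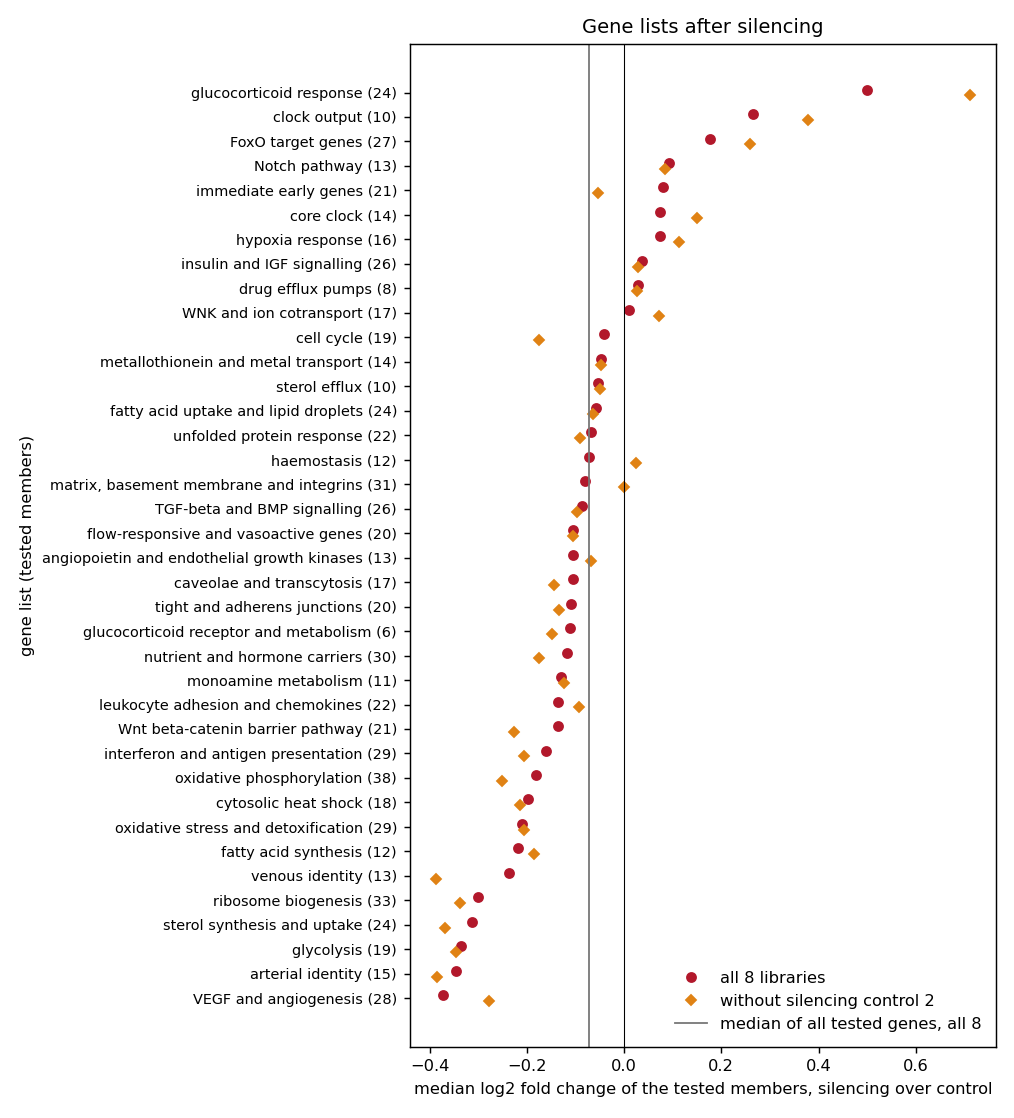
Median log2 fold change of the tested members of each of the 38 pathway lists (number tested in brackets), silencing over silencing control, with all 8 libraries (red circles) and without silencing control 2 (orange diamonds); the grey line is the median of all tested genes, -0.07. Glucocorticoid response genes lie highest (0.50 and 0.71) and VEGF and angiogenesis genes lowest with all 8 libraries (-0.37). The lists were chosen with earlier results of these data known.

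Activation of the same neuron class has its own controls, so the silencing and activation effects can be set side by side and their difference tested over the 16 libraries. Of 13464 genes 311 (2.31%) differed at an adjusted p under 0.05, a count that ran from 86 without silencing control 4 to 916 without silencing control 2. Ddc had effects of opposite sign: 0.59 ± 0.09 with silencing and -1.08 ± 0.20 with activation, a difference of 1.67 ± 0.23 (limma adjusted p = 0.00296). Bysl read -0.79 ± 0.11 with silencing and 0.58 ± 0.14 with activation (difference -1.37 ± 0.17, limma adjusted p = 0.00253). Wnk4 read 1.54 ± 0.15 with silencing and -0.35 ± 0.23 with activation, and Samhd1 0.69 ± 0.08 with silencing and -0.43 ± 0.13 with activation (differences 1.90 and 1.12, limma adjusted p = 0.00449 and 0.00296). Without the block, the activation effect by itself was not called for Ddc, Bysl, Wnk4 or Samhd1 (limma adjusted p = 0.0726, 0.15, 0.607 and 0.238). With the block it was called for Ddc (limma adjusted p = 0.00523). The PAR bZIP genes differed too: Hlf read 1.21 ± 0.24 with silencing and -0.80 ± 0.15 with activation (difference limma adjusted p = 0.00449) and Tef 0.75 ± 0.23 with silencing and -0.91 ± 0.15 with activation (difference limma adjusted p = 0.00882). Kdr stayed near 0 with activation (-0.03 ± 0.14) and its difference was -1.03 ± 0.21 (limma adjusted p = 0.0222).

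Tprn rose with silencing and read as high with activation (0.79 ± 0.12 with silencing and 0.80 ± 0.18 with activation), with a difference of -0.01 ± 0.24. Pmaip1 read 1.46 ± 0.28 with silencing and 1.37 ± 0.58 with activation (difference 0.09 ± 0.73). Neither difference passed, which does not show that the effects are equal. Of the glucocorticoid genes, the difference passed for Klf15 (2.26 ± 0.57, limma adjusted p = 0.0467) and missed for Fkbp5 (2.32 ± 1.22, 0.365) and Hif3a (2.28 ± 0.61, 0.0558). With the block the Hif3a difference passed (limma adjusted p = 0.0459). In the sterol path, Sqle read -0.68 ± 0.13 with silencing and 0.68 ± 0.15 with activation, and Cyp51 -0.66 ± 0.12 with silencing and 0.50 ± 0.19 with activation. Both differences passed (limma adjusted p = 0.00444 and 0.0221). The activation effect by itself was not called for Tprn, Pmaip1, Sqle or Cyp51 (limma adjusted p without the block = 0.136, 0.406, 0.127 and 0.344).

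**Figure D5:**
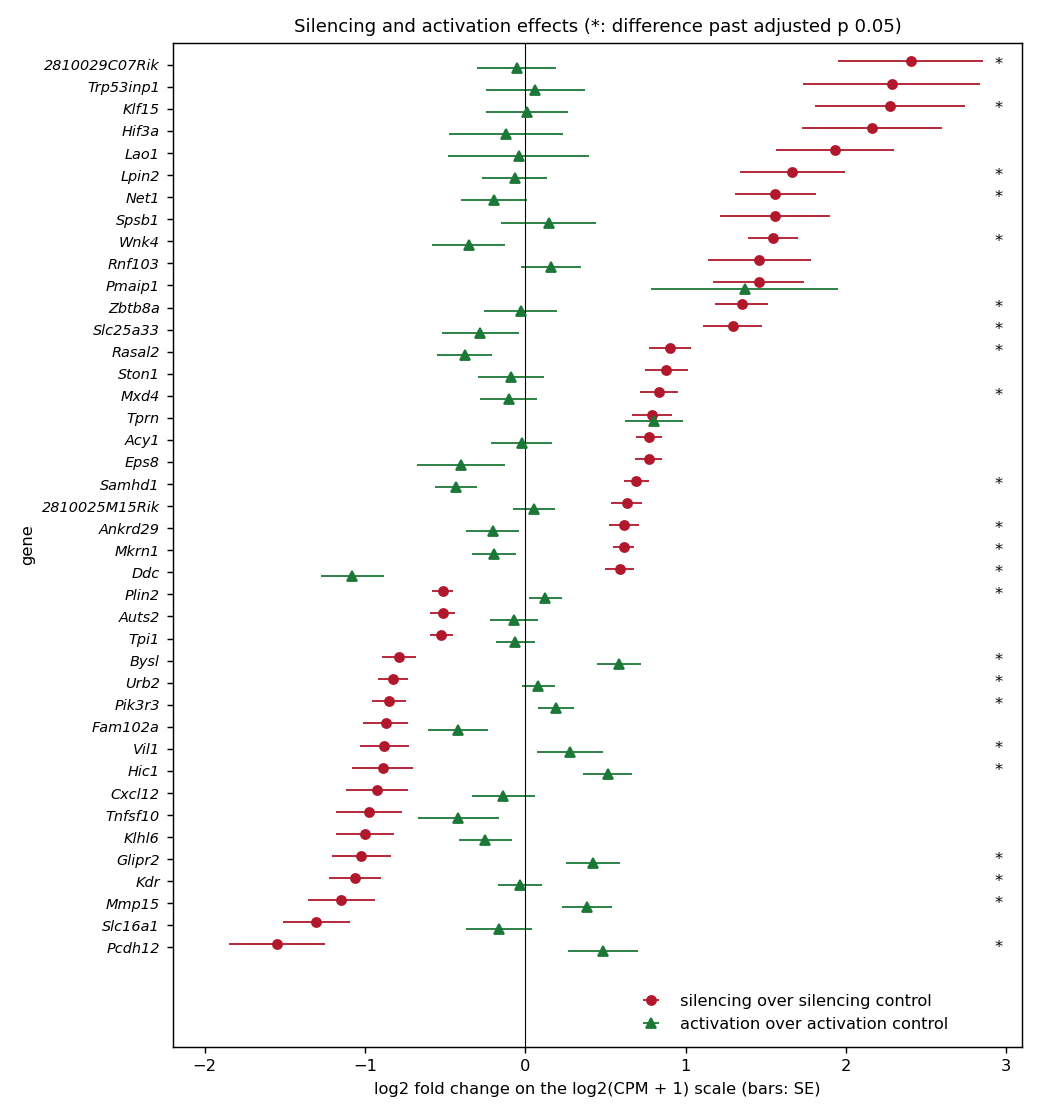
Log2 fold changes with SE (bars) of 41 genes named above for the fits of all 8 libraries with and without the block and also tested for activation, for silencing over silencing control (red circles) and activation over activation control (green triangles); an asterisk marks a difference of effects past an adjusted p of 0.05. Tprn and Pmaip1 have both effects above 0 (0.80 and 1.37 with activation), while Ddc has them on opposite sides (0.59 and -1.08).

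The levels of 3 genes that separate control 2 from its group, Fkbp5, Doc2b and Zbtb16, and that of Kdr, which does not, can be read across the whole series. Fkbp5 was at 248 CPM or more in all silencing libraries and at 469 CPM in silencing control 2, but between 6.83 and 51.8 CPM in the 8 activation and activation control libraries and between 45.9 and 77.6 CPM in the 6 libraries of the series' whisker experiment (barrel cortex of mice with or without whisker stimulation, called whisker-plus and whisker-minus). Doc2b was at 222 CPM or more in the silencing libraries, at most 29.1 CPM in the activation experiment and 73.8 to 92.5 CPM in the whisker libraries. Zbtb16, in contrast, varied within the activation experiment, from 6.61 to 97.1 CPM with activation and from 8.16 to 91.1 CPM in activation controls, and reached 234 CPM in whisker-plus and 208 CPM in whisker-minus libraries. Kdr stood at 1102 to 1557 CPM with activation and 1234 to 1481 CPM in activation controls, where silencing controls stood at 1068 to 1493 CPM, and at 855 to 1049 CPM in whisker-plus and 982 to 1301 CPM in whisker-minus libraries. These levels cross separate experiments and were not tested.

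The 15 endothelial markers summed to 20994.9 to 23002.9 CPM in silencing libraries and 22514.3 to 29980.3 CPM in controls, with control 2 the lowest control, and Pecam1, which encodes CD31, was not called (-0.10 ± 0.12), while 6 others of the list fell without control 2, as given above. In bulk libraries fewer cells of a type and less RNA per cell cannot be told apart. Pericyte markers lay above 0 in 11 of 12, with 0 called (limma; 0 at an unadjusted p under 0.05, and 0 with edgeR or DESeq2), and summed to 1097.6 to 2553.7 CPM in silencing libraries and 932.8 to 2914.8 CPM in controls, highest in number 1 of both groups. Smooth muscle markers summed to 443.1 to 730.3 CPM after silencing and 274.4 to 680.1 CPM in controls. Control 2 held the highest sums of 4 lists over the 8 libraries, at 787.8 CPM for astrocytes, 1915.5 CPM for oligodendrocytes, 109 CPM for microglia and 789.8 CPM for red blood cells. The oligodendrocyte sum was 1285.3 to 1424.6 CPM in silencing libraries and 741.9, 763.6 and 886 CPM in the other controls, so the silencing libraries and control 2 were the higher ones. Most of it was Mal, a membrane raft protein, with 1885 CPM in control 2. The sum therefore follows that gene and not the list, of whose 4 tested members 2 lay above 0 and 2 below. Neuron markers summed to 81.86 to 124.9 CPM after silencing and 79.97 to 121.5 CPM in controls. No marker list had a member listed at 0 in all 8 libraries. The part that these other cells play in the changes above was not tested.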

How the data were processed

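RNA of sorted endothelial cells was sequenced with 100-base paired reads, per the labels' protocols. The authors deposited 1 table of CPM values, in which every value was a whole multiple of the library's smallest one (100% within 0.01 read), so read counts were recovered from the deposited table for the count tests only. Per the submitters' processing notes the build was mm9 and the tools were HTSeq 0.6.1, DESeq2, TopHat2 2.0.11, SAMtools 0.1.19 and Bowtie2 2.2.1; their roles are not stated there. The authors' deposited table of silencing changes also holds log2 fold changes, a test score, p-values and FDR. It was used only to count the genes marked in it and those of them with an FDR under 0.05.

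Genes with at least 1 CPM in at least 4 of the 8 libraries were tested as log2(CPM + 1) with limma 3.58.1 (R 4.3.3, mean-variance trend, Benjamini-Hochberg adjustment). The difference of the silencing and activation effects was fitted over 16 libraries. Alternatives were the replicate block, TMM and RLE scaling (edgeR 4.0.16), other filters and pseudocounts, library weights, all 22 libraries, edgeR, DESeq2 1.42.0 and leaving out libraries. The fits were tested on simulated data. The pairing by replicate number rests on the data alone: each library's deviations correlated best with its own number, and no label says what the number means.

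Named genes were up to 15 called genes per direction, up to 10 per direction called only with the block (mean of at least 5 CPM and no overlap), up to 8 per direction called only without control 2 (mean of at least 10 CPM), and, in 51 gene lists, called members and the 3 highest. The text gives a selection of the list members. The members and lists were chosen with earlier results of these data known. Of the deposited gene names 25 had been turned into dates and were restored, and 3750 entries share a symbol with another.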

Additional observations from a re-analysis of the deposited data

Results flagged for a closer look

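Within each group of 4, a library that lay far from the other 3 was looked for in the 166 named genes, 332 groups in all, with Dixon's test at its 95% critical value, which chance exceeds in about 1 group in 20. The test found 38 such values, and 28 of them belonged to silencing control 2. The named genes were partly chosen for being called only without that library. Of the 166, 134 were called without it and not in the unblocked fit of all 8 libraries. Some of the 134 were called with all 8 libraries and the block. Of the 28 values 23 come from the 134. Choosing genes in this way favours those in which control 2 stands apart. This tally therefore says nothing about how often it does so among all genes.

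Among these 28, silencing control 2 was the highest control, in CPM, for Fkbp5 (469), Doc2b (308), Kcna5 (134), Angptl4 (342), Lpin1 (109), Lpl (26.1), Trp53inp1 (454), Mxd4 (465), Rasal2 (290), Rnf103 (320), Spsb1 (54.6), Igfbp3 (306), Insr (705), Slc2a1 (11784), Slc1a1 (772), Abcc4 (1883), Por (260), Ndrg1 (2464), Bnip3 (151), Timp3 (1838), Mal (1885), Angpt2 (315), Apln (36.1), 2810029C07Rik (32.7) and 2900041M22Rik (0.766). It was the lowest control for Tgfb2 (38.9), Maoa (222) and Acsl3 (81.6). Why this library differs was not tested.

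The other 10 values came from 5 libraries. Silencing 1 stood apart for Fam102a (16.6 CPM), Nampt (212 CPM) and Wee1 (39.4 CPM). Silencing 2 did so for Mcm3 (18.1 CPM) and Apln (16.1 CPM), silencing 3 for Srebf1 (83.9 CPM) and silencing 4 for Ankrd37 (14.6 CPM), Klhl6 (35.6 CPM) and Maob (21.0 CPM). Silencing control 3 did so for Pfkl (195 CPM).

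For 40 named genes the silencing effect minus the activation effect passed the test over the 16 libraries (limma adjusted p between 0.00253 and 0.0483). Over all 13464 genes 311 passed (2.31%). The named genes were partly chosen for a silencing effect in 8 of these same libraries, which favours such differences. The count of 40 can therefore not be read as an excess over that share. On the log2 scale the difference was above 0 for Klf15 (2.26), 2810029C07Rik (2.46), Hlf (2.01), Tef (1.67), Wnk4 (1.90), Net1 (1.75), Lpin2 (1.73), Ddc (1.67), Slc25a33 (1.57), Sesn1 (1.45), Zbtb8a (1.38), Rasal2 (1.28), Samhd1 (1.12), Tgfbr3 (1.08), 2900041M22Rik (0.98), Ace (0.97), Mxd4 (0.94), Ankrd29 (0.82) and Mkrn1 (0.81). It was below 0 for the vascular genes Kdr (-1.03), Vegfa (-1.06), Pdgfa (-1.62), Pcdh12 (-2.03), Mmp15 (-1.53) and Eng (-0.71). The ribosome assembly genes Bysl (-1.37), Urb2 (-0.91), Wdr75 (-0.96), Ltv1 (-0.89), Nolc1 (-0.76) and Rrp9 (-0.76) were below 0 too. So were the sterol genes Sqle (-1.36) and Cyp51 (-1.16), and Ccnd1 (-1.81), Glipr2 (-1.45), Hic1 (-1.40), Vil1 (-1.15), Pik3r3 (-1.04), Arntl (-0.90) and Plin2 (-0.64).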

How the results depend on the processing

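The 23 genes called with all 8 libraries became 136 with the replicate block, 134 with the block and TMM scaling, 35 with TMM scaling, 35 with a minimum of 5 CPM, 7 with no filter on low values, 14 with a pseudocount of 0.1, 1244 with library weights, 461 with DESeq2 on recovered reads and 222 in a fit of all 22 libraries. RLE scaling (34) and edgeR (24) stayed within 1.5 times. Leaving out 1 library gave 0 to 1503, and leaving out silencing control 2 under TMM scaling gave 1182. With the block, leaving out pair 1, 3 or 4 gave 0 and leaving out pair 2 gave 2399. Each fit that leaves out a library or a pair also holds fewer libraries. Why these counts move was not tested.

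The 311 genes whose silencing and activation effects differed became 855 with the block, 840 with the block and TMM scaling, 111 with no filter, 1459 with library weights, 760 with DESeq2, 537 in a fit of all 22 libraries and 819 without silencing control 2 under TMM scaling. Leaving out 1 library gave 86 to 916. With the block, it became 1399 without silencing pair 2, 913 without activation pair 1 and 577 without activation pair 2.

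Of 3973 pairs of a named gene and an alternative, 3969 kept their direction. The 4 that turned were uncalled genes without silencing control 2: Apln (0.026, and 0.092 under TMM scaling), Angpt2 (0.014 under TMM scaling) and Flt1 (0.027 under TMM scaling). The log2 fold change of Apln ran from -1.216 to 0.026 when 1 library was left out. Of 1222 list medians under an alternative 111 moved by more than the spread between libraries. TMM scaling shifted the median of all genes to -0.01 from -0.07 on the log2 scale, so small negative list medians depend on the scaling. The fit of all 8, with 4 libraries against 4, counts any deviation of control 2 from the other controls as spread within the controls. How far this bears on the number of calls was not tested.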

Other observations

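Of 13 Notch pathway genes 2 rose and 0 fell without silencing control 2, and of 20 flow-responsive and vasoactive genes 1 rose and 2 fell. In that fit 4.14% of all tested genes rose, 7.41% fell and 11.5% were called in either direction. In each list 0 were called with all 8 libraries or with the block (limma; 2 at an unadjusted p under 0.05 with all 8, 0 with edgeR and 1 with DESeq2). Notch4, the endothelial Notch receptor, stood at 701, 865, 759.5 and 728 CPM after silencing, against 425, 711, 581 and 535 CPM in controls, and its ligand gene Jag1 at 225, 206, 215 and 235 CPM after silencing, against 161, 217, 145 and 124 CPM in controls. Control 2 lay with the silencing libraries in both, and the 2 genes rose without it (0.58 ± 0.12 and 0.62 ± 0.10, limma adjusted p = 0.0189 and 0.00425). The nitric oxide synthase gene Nos3 stood at 305, 318, 330.3 and 312 CPM after silencing, against 354, 282, 501 and 522 CPM in controls, and fell without control 2 (-0.52 ± 0.13, limma adjusted p = 0.034). Ace, which makes angiotensin II, stood at 95.9, 71.1, 86.6 and 75.5 CPM after silencing, against 51.6, 56.9, 50.8 and 65.2 CPM in controls; its groups did not overlap and control 2 lay among the controls (0.55 ± 0.12 without it, limma adjusted p = 0.0236, against 0.0908 with it). Timp3, an inhibitor of matrix proteases, stood at 1767, 1849, 1886 and 1827 CPM after silencing, against 1094, 1838, 1042 and 994 CPM in controls, and rose in the same fit (0.81 ± 0.09). Herpud1, of protein quality control in the endoplasmic reticulum, stood at 332, 257, 237 and 223 CPM after silencing, against 232, 204, 161 and 155 CPM in controls. It was called with the block (0.48 ± 0.08, limma adjusted p = 0.0416) but not without control 2 (0.074).

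In some genes silencing control 2 lay beyond both groups. Angpt2, which destabilises vessels and marks sprouting tips, stood at 30.01, 60.1, 24.9 and 45.3 CPM after silencing, against 47.2, 315, 33.6 and 39.5 CPM in controls, and Apln, a peptide gene of tip cells, at 2.52, 16.1, 3.04 and 2.74 CPM after silencing, against 3.65, 36.1, 5.44 and 4.23 CPM in controls. For both genes the silencing library with the same number was the next highest of the 8. Neither gene was called with all 8 libraries, with the block or without control 2.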
